A study of Mus musculus with 12 samples.

Results

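The 10 crystallin genes Cryaa, Cryab, Cryba1, Cryba2, Cryba4, Crybb1, Crybb2, Crybb3, Crygs and Crygn were followed through a count table of 50559 genes, in which they were chosen by symbol. All 10 were found, and each had at least 1 count in every library. RNA had been measured in 12 libraries of whole retinas from wild-type C57BL6/J mice at postnatal day 28 (P28), 3 libraries in each of 4 groups. IgG mice had received 30 µg of rat isotype control antibody on day 1 after birth, and APB5 mice 30 µg of the rat antibody APB5, which blocks the receptor PDGFRβ on pericytes, the cells that wrap retinal capillaries. The groups IgG+Mino and APB5+Mino received the same antibodies and then minocycline, a tetracycline antibiotic, daily from day 5 to day 27 at 45 mg/kg. All groups thus carried an injected rat antibody, and none was left uninjected. The 3 libraries of a group are taken as 3 mice, which is how the study describes its sequenced groups, and whether 1 or both retinas of a mouse were used is not given in the sources used here.

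Crystallins are the main soluble proteins of the lens, where they are packed at high concentration in fibre cells and keep the tissue transparent. The α-crystallins Cryaa and Cryab belong to the small heat shock proteins, which bind unfolding proteins and hold them in solution. The β-crystallins (Cryba1, Cryba2, Cryba4, Crybb1, Crybb2, Crybb3) and the γ-crystallins (here Crygs, the form found in the adult lens) are structural proteins, and Crygn is related to both families. Cryab is also made outside the lens, in heart, skeletal muscle and glia, and is induced by heat and other stress. The lens lies next to the retina and is removed when the retina is dissected, so both lens RNA and RNA of retinal cells can in principle enter such a library.

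The genes lie at separate places in the genome. On the mouse build GRCm39, Cryaa lies on chromosome 17 (31896781 to 31900707, 3 exons), Cryab on chromosome 9 (50664187 to 50668567, 3 exons) and Crygs on chromosome 16 (22623953 to 22630327, 3 exons). Cryba1 lies on chromosome 11 (77609453 to 77616120) and Cryba2 on chromosome 1 (74929093 to 74932302). The other 5 lie on chromosome 5, where Cryba4 (112394359 to 112400384, minus strand) and Crybb1 (112403680 to 112417965, plus strand) are neighbours that point away from each other. Crybb2 (113206124 to 113216632) and Crybb3 (113223705 to 113229450) lie together on the minus strand of chromosome 5, and Crygn (24956001 to 24963006) lies apart from them.

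The sequences before the start sites are shown because the levels of most of these genes went together from library to library. RefSeq windows on GRCm38.p6 were found for 9 of the 10 genes, and none was found for Cryab. Of each window the 250 bases before the start site were searched on both strands for the core of the recognition site of Maf factors, the regulators of lens fibre genes, spelled TGCTGA. The same bases were searched for GAANNTTC and TTCNNGAA, the paired units of a heat shock element, to which heat shock factors bind. The motif TGCTGA was present in 8 of the 9 windows, all but that of Crybb2, and in 16.1% of the 32851 windows of all genes. GAANNTTC was in 0 of the 9 and in 6.7% of all windows, and TTCNNGAA was in that of Cryba1 alone and in 7.2% of all. These matches are letters found in a window and not measured binding. The windows of 5 genes are given 5′ to 3′ on the gene's strand, with the matched letters in capitals, where TCAGCA is TGCTGA read on the other strand.
Cryaa, chr17:31677681-31677930, strand +: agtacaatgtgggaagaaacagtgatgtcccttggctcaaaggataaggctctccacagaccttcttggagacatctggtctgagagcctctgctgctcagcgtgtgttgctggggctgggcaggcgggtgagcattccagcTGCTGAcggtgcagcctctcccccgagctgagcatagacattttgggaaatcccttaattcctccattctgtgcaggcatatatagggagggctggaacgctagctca
Cryba1, chr11:77725294-77725543, strand -: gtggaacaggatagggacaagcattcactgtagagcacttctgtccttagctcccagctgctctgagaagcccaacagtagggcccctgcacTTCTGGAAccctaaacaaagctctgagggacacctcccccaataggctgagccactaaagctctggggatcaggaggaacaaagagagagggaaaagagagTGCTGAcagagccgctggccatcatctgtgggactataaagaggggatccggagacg
Crybb1, chr5:112255570-112255819, strand +: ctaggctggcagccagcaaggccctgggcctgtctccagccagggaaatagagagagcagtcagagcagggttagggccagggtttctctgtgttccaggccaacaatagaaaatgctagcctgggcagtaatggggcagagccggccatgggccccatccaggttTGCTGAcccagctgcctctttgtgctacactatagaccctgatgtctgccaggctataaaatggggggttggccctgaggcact
Crybb3, chr5:113081585-113081834, strand -: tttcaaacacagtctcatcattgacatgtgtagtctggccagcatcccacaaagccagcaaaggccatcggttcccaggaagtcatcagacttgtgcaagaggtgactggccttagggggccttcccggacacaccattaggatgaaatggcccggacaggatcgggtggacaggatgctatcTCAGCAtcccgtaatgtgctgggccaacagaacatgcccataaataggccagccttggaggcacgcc
Crygs, chr16:22811411-22811660, strand -: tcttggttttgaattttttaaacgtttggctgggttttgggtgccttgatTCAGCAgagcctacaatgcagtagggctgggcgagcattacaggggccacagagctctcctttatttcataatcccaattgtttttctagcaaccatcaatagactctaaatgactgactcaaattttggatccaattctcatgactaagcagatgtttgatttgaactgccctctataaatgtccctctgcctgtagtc

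Total counts ranged from 52740545 to 59411044 per library, so depth was nearly equal. Values are CPM, that is, counts relative to the library total after scaling by edgeR's TMM factors, and 3 counts corresponded to 0.0448 to 0.0587 CPM. APB5 replicate 3 was unlike the other 11 libraries in its makeup. Its 8 rod photoreceptor genes summed to 12094 CPM, against 46624 to 69730 CPM in the other 11 libraries, and its 10 pigment epithelium genes to 993 CPM, against 62.8 to 227 CPM. The retinal label of the tissue was therefore matched by rod transcripts in all libraries, least so in that one. Xist, which is transcribed in female cells, had 47210 to 91647 counts in the IgG libraries and 20 to 27 in the IgG+Mino libraries, so sex and minocycline cannot be told apart between those groups. In APB5 it had 5, 14 and 83956 counts, the last in replicate 3, and in APB5+Mino 38, 23 and 141589 counts. APB5 against IgG thus set 1 Xist-rich library of 3 against 3 of 3, and the Xist-rich APB5 library was the one with few rod transcripts.

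The crystallins varied widely between libraries of the same group, and 2 libraries held most of their transcripts. The SD of log2 CPM within groups was taken after adding 0.5 CPM, which lowers it for scarce genes such as Crygn. Pooled over the 4 groups, it was 1.12 (Crygn) to 2.85 (Cryaa), against a median of 0.21 over 21228 genes. The 10 genes together took 0.242% of all counts in IgG+Mino replicate 3 and 0.101% in IgG replicate 1, against 0.00378% to 0.0266% in the other 10 libraries. IgG+Mino replicate 3 was the highest of the 12 libraries for 10 of 10 genes. IgG replicate 1 was the second highest for 9 of 10, and for Cryab the second highest was APB5 replicate 3. IgG+Mino replicate 2 was among the 2 lowest libraries for 10 of 10 genes, and APB5 replicate 2 for 7. In whole retina, fewer cells of a type and less RNA per cell cannot be told apart, nor can RNA carried over from a neighbouring tissue.

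Cryaa, the α-crystallin best known from the lens, had 20163, 3055 and 1299 counts in the IgG libraries (353, 53.5 and 22.4 CPM). It had 1070, 149 and 60283 counts in IgG+Mino (19.4, 2.64 and 1119 CPM). In APB5 it had 4858, 73 and 2139 counts (87.8, 1.33 and 32.0 CPM), and in APB5+Mino 953, 4227 and 2542 counts (17.1, 82.7 and 47.8 CPM). The highest and the lowest library thus differed by 840-fold, and the ranges of all 4 groups overlapped. On the log2 scale, with 0.5 CPM added, the span of Cryaa over the 12 libraries was 9.25, against a median of 0.845 over 21228 genes. Only 2 genes, Cryaa included, spanned as much. A span above the 99th percentile of all genes, 3.70, was found for 8 of the 10 crystallins, all but Cryab and Crygn. The added 0.5 CPM narrows the log2 span of a scarce gene such as Crygn, whose CPM ranged 334-fold.

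Cryab varied much less. It had 115.5, 43.2 and 62.4 CPM in IgG, 44.8, 31.2 and 363 CPM in IgG+Mino, 74.6, 38.2 and 152.4 CPM in APB5, and 34.5, 45.9 and 41.2 CPM in APB5+Mino. It was never below 31.2 CPM (1760 counts), and the highest library exceeded the lowest by 11.7-fold, a log2 span of 3.52. The highest were IgG+Mino replicate 3, APB5 replicate 3 and IgG replicate 1. The APB5+Mino libraries were the tightest group, with a coefficient of variation of 14.1%, against 50.8% in IgG, 66.0% in APB5 and 128% in IgG+Mino.

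**Figure D1:**
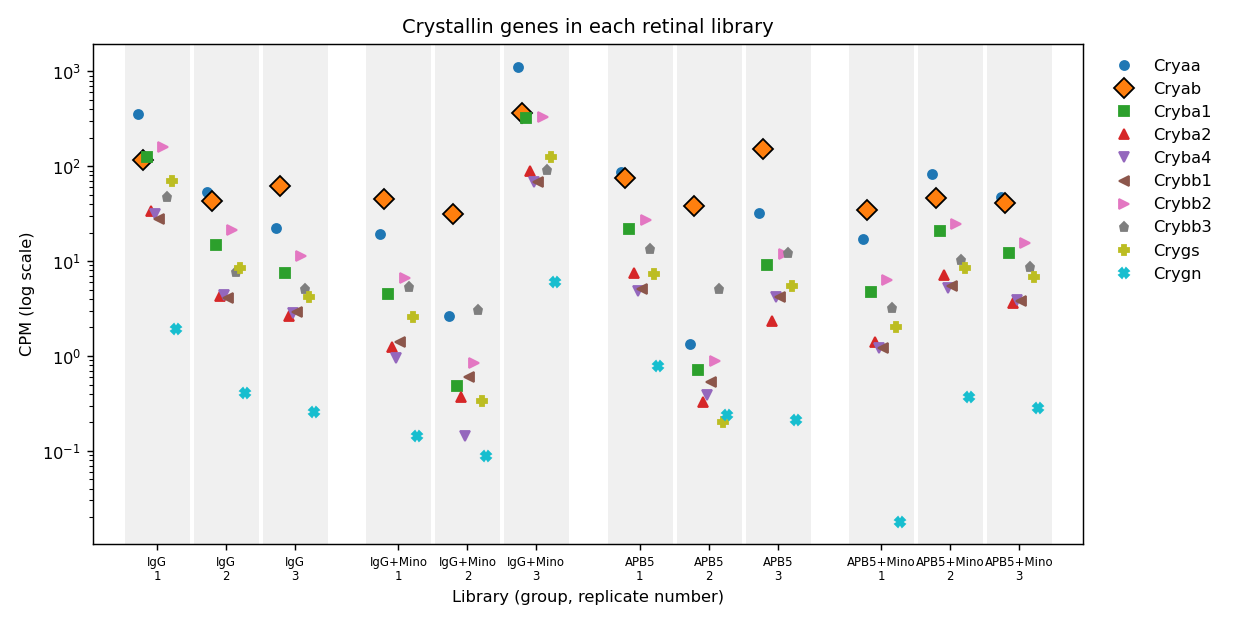
Level of each of the 10 crystallins (CPM, log scale) in each of the 12 libraries, with 3 libraries a group and 1 symbol a gene. Most genes stood high in IgG+Mino replicate 3 and IgG replicate 1 and low in IgG+Mino replicate 2 and APB5 replicate 2, while Cryab (large orange diamonds) stayed between 31.2 and 363 CPM.

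Among the β-crystallins, Crybb2 was the most abundant per kilobase of transcript. It had 160.2, 21.5 and 11.2 CPM in IgG, 6.59, 0.850 and 327 CPM in IgG+Mino, 27.4, 0.876 and 11.8 CPM in APB5, and 6.28, 24.4 and 15.7 CPM in APB5+Mino. Cryba1 followed with 124.7, 14.8 and 7.56 CPM in IgG, 4.51, 0.478 and 326 CPM in IgG+Mino, 21.7, 0.712 and 9.13 CPM in APB5, and 4.78, 20.5 and 12.03 CPM in APB5+Mino. Both had their 2 highest and their 2 lowest libraries in common with Cryaa. Cryba2 ranged from 0.329 to 90.0 CPM, Cryba4 from 0.142 to 69.0 CPM and Crybb1 from 0.529 to 67.9 CPM over the 12 libraries.

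Crybb3, the basic β-crystallin next to Crybb2, kept a higher level in the libraries where the other β-crystallins were scarce. It had 47.4, 7.67 and 5.04 CPM in IgG, 5.30, 3.03 and 90.6 CPM in IgG+Mino, 13.5, 5.13 and 12.3 CPM in APB5, and 3.17, 10.3 and 8.61 CPM in APB5+Mino. Its span of 29.9-fold was the smallest after that of Cryab, and its lowest library still held 171 counts. In APB5 replicate 2 it had 281 counts where its neighbour Crybb2 had 48 and Cryaa 73.

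Crygs, the γ-crystallin of the adult lens, had 69.6, 8.54 and 4.14 CPM in IgG, 2.57, 0.336 and 124.8 CPM in IgG+Mino, 7.38, 0.201 and 5.53 CPM in APB5, and 2.0045, 8.49 and 6.84 CPM in APB5+Mino. Its span of 621-fold was close to that of Cryba1 (681-fold), and it fell to 11 counts in APB5 replicate 2. It held no steady level of the kind seen for Cryab. Crygn was the scarcest member, with 322 counts in IgG+Mino replicate 3, 109 in IgG replicate 1, and 1 to 43 in the other 10 libraries.

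Levels were ranked per kilobase of the GENCODE canonical transcript, as the median over the 12 libraries. Cryaa stood at 31.8 CPM per kb, Cryab at 26.8, Crybb2 at 18.8, Cryba1 at 13.4, Crybb3 at 9.83 and Crygs at 7.07. Cryba4 (4.97 CPM per kb), Cryba2 (4.38), Crybb1 (2.81) and Crygn (0.352) followed. Every pair of neighbours in this order overlapped in range over the libraries, so the order describes medians alone.

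The ratio of each gene's count to that of Cryaa separated the crystallins into those that kept a near-constant proportion and those that did not. Crybb2 was 0.292 to 0.658 times Cryaa over the 12 libraries, a 2.25-fold range. Crygs was 0.0840 to 0.197 times Cryaa, a 2.35-fold range, and Cryba1 0.181 to 0.534 times, a 2.95-fold range. Cryba2, Cryba4 and Crybb1 had ranges of 3.88-fold, 5.81-fold and 6.84-fold. These values are to be set against the 840-fold span of Cryaa itself.

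Cryab behaved otherwise. It was 0.325 and 0.328 times Cryaa in the libraries richest in Cryaa, IgG+Mino replicate 3 and IgG replicate 1, and 11.8 and 28.7 times Cryaa in the poorest, IgG+Mino replicate 2 and APB5 replicate 2. Its ratio thus had an 88.3-fold range. In APB5 replicate 3 it was 4.77 times Cryaa, although Cryaa there (2139 counts) lay near that of APB5+Mino replicate 3 (2542 counts), where the ratio was 0.861. Crybb3 also rose relative to Cryaa where Cryaa was scarce, from 0.0810 in IgG+Mino replicate 3 to 1.15 in IgG+Mino replicate 2 and 3.85 in APB5 replicate 2, a 47.6-fold range. Among the 9 libraries with at least 1000 Cryaa counts, the range was 14.7-fold for Cryab, 4.74-fold for Crybb3 and 1.52-fold to 2.62-fold for the other 7 genes. The range of Crygn over all 12 libraries, 170-fold, included libraries with 1 to 13 counts of it.

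**Figure D2:**
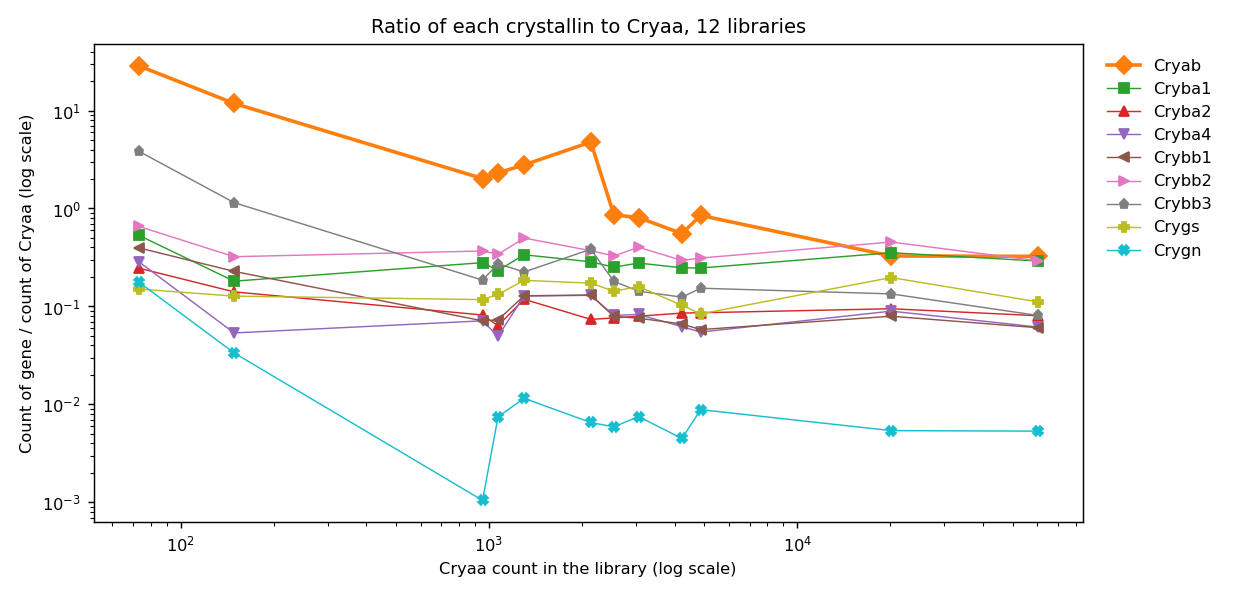
Count of each crystallin divided by the count of Cryaa (log scale) against the Cryaa count (log scale), 1 point a library, 12 libraries. Crygs, Crybb2 and Cryba1 run flat, within 2.95-fold, while Cryab and Crybb3 climb towards the libraries with little Cryaa, up to 28.7 and 3.85 times Cryaa.

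A straight line of Cryab CPM on Cryaa CPM was fitted by least squares over the 9 libraries outside the APB5 group, as a description. Its intercept was 31.3 CPM (SE 4.93) and its slope 0.291 (SE 0.0125), with a residual SD of 12.9 CPM. The intercept is the Cryab level that the line gives where Cryaa is 0. Without IgG+Mino replicate 3 the intercept was 35.8 CPM and the slope 0.220, and without IgG replicate 1 as well they were 40.4 CPM and 0.083 (SE 0.158), so the slope rests on those 2 libraries while the intercept moved little. The 3 APB5 libraries, which the line did not use, lay 17.7, 6.45 and 111.8 CPM above it. IgG replicate 3, which the line did use, lay 24.5 CPM above it, more than APB5 replicates 1 and 2. APB5 replicate 3 thus held 152.4 CPM of Cryab where the line gave 40.6. In those 2 further fits APB5 replicate 3 lay 109.5 and 109.4 CPM above the Cryab line. APB5 replicate 1 lay 19.4 and 26.9 CPM above it, and APB5 replicate 2 lay 2.05 CPM above and then 2.29 CPM below. The libraries left out of these fits missed the line too. IgG+Mino replicate 3 lay 80.9 and 229.5 CPM above it, and IgG replicate 1 lay 45.7 CPM above it in the last fit.

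The same line was fitted for Crybb3 and Crygs. That of Crybb3 had an intercept of 4.77 CPM (SE 2.23), and of 1.73 and 2.78 CPM without IgG+Mino replicate 3 and then without IgG replicate 1 as well. APB5 replicate 3 lay above it in all 3 fits, by 4.93, 6.44 and 6.41 CPM, where the residual SD was 5.86, 1.20 and 0.872 CPM. That of Crygs had intercepts of 3.26 (SE 4.00), -2.12 and 0.78 CPM, and APB5 replicate 3 lay 1.41 CPM below the first line and 1.26 and 1.17 CPM above the others, against residual SDs of 10.5, 2.74 and 1.26 CPM. Cryab and Crybb3 thus stood above their lines in that library in every fit, and Crygs in all but the first. For Crybb3 this was not particular to that library. APB5 replicate 1 lay 1.65, 0.498 and 2.24 CPM above the Crybb3 line, and APB5 replicate 2 lay 0.256, 3.23 and 2.22 CPM above it. IgG replicate 1 lay 14.2, 0.456 and 10.6 CPM above it, further than APB5 replicate 3 in the first and last fits. The excess of Crybb3 in APB5 replicate 3 was smaller than its residual SD in the first fit. The residual SDs cover only the libraries that a fit used. IgG+Mino replicate 3, left out of the last 2 fits, lay 54.6 and 20.1 CPM below the Crybb3 line.

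**Figure D3:**
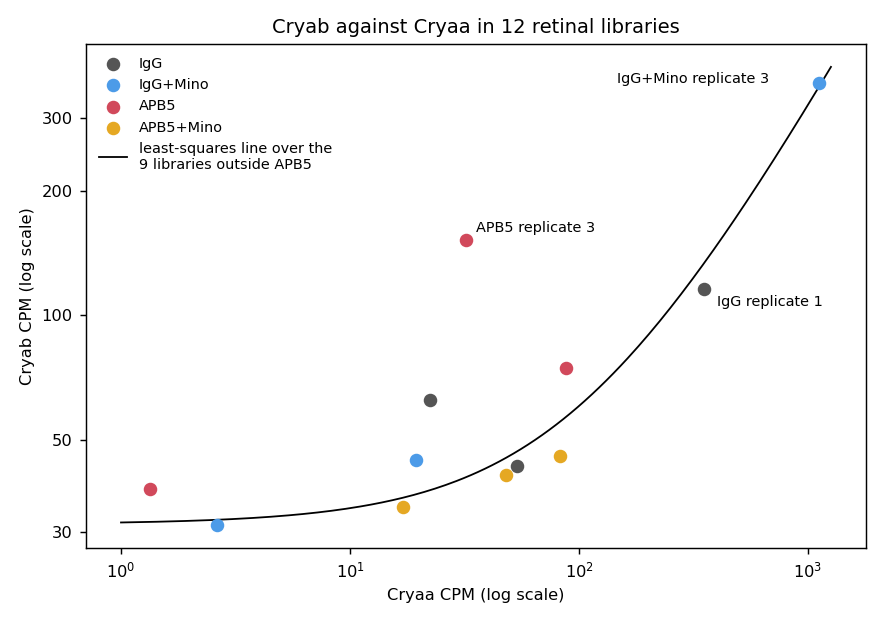
Cryab against Cryaa (CPM, both axes log) in the 12 libraries, coloured by group, with the least-squares line over the 9 libraries outside APB5. Cryab levelled off near the intercept of 31.3 CPM where Cryaa was scarce, and APB5 replicate 3 lay 111.8 CPM above the line.

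Over the 12 libraries, the log2 CPM of each crystallin was compared with the mean of the other 9 as a description, since the genes share libraries. Pearson's r was 0.902 to 0.994 for the 9 genes other than Cryab and 0.818 for Cryab. Spearman's rho was 0.902 to 0.993 for those 9 and 0.776 for Cryab. Without IgG replicate 1 and IgG+Mino replicate 3, the 2 libraries farthest from the median, r remained between 0.963 and 0.986 for Cryaa, Cryba1, Cryba2, Cryba4, Crybb1, Crybb2 and Crygs. It was 0.810 for Crybb3, 0.673 for Crygn and 0.492 for Cryab, whose relation to the others therefore rests largely on those libraries.

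Lens genes that encode no crystallin moved in the same libraries. The list held 12 such genes, among them Mip, the water channel of lens fibres, Bfsp1 and Bfsp2, their beaded filament proteins, Lgsn (lengsin), and Lim2, a membrane protein of lens fibres. Of the 12, 10 were highest in IgG+Mino replicate 3. Mip had 1.33, 0.420 and 0.397 CPM in IgG, 0.199, 0.0885 and 6.66 CPM in IgG+Mino, 1.70, 0 and 0.314 CPM in APB5, and 0.143, 1.16 and 0.451 CPM in APB5+Mino. It had 359 counts in IgG+Mino replicate 3, and its 0 counts in APB5 replicate 2 allow up to 0.0548 CPM. Bfsp1 had 8.02 CPM in IgG+Mino replicate 3, 4.93 CPM in IgG replicate 1, and 0.301 to 1.64 CPM elsewhere.

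The list summed to 13.4 to 24.0 CPM in IgG, 7.67 to 48.3 CPM in IgG+Mino, 7.98 to 16.2 CPM in APB5 and 8.39 to 13.3 CPM in APB5+Mino. Hsf4, a heat shock factor of the lens, was steady at 5.34 to 9.10 CPM in all libraries and made up much of the sum outside the 2 rich ones. Without Hsf4 the sum was 40.8 CPM in IgG+Mino replicate 3, 17.8 CPM in IgG replicate 1 and 1.73 to 8.33 CPM in the other 10. Between 0 and 4 of the 12 genes were at 0 counts in a library, most in IgG+Mino replicate 2, where Dnase2b, Foxe3 and Birc7 were among those at 0. The part of these lens transcripts in the crystallin values was not tested.

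Each of the 10 crystallins was related to the summed lens list, with r between 0.915 (Cryaa) and 0.977 (Crybb1) and rho between 0.776 and 0.909 over the 12 libraries, given as a description, since both the crystallins and the list were chosen with results known. Cryab had r = 0.924 and rho = 0.909. Without IgG replicate 1 and IgG+Mino replicate 3, r was 0.756 for Cryab, 0.705 for Crygn and 0.834 to 0.950 for the other 8. With Hsf4 taken out of the sum, r was 0.842 for Cryab and 0.955 for Cryaa, and rho was 0.755 and 0.993. Both values of Cryab were then the lowest of the 10 genes.

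The genes outside the crystallins whose log2 CPM followed the mean of the 10 most closely, among 15797 genes with a mean of at least 1 CPM, were Bfsp1 (r = 0.969), Mip (0.926), Bfsp2 (0.903), Lgsn (0.852) and Gm14026 (0.791). The first 4 of these were on the lens list. For Cryab alone they were Bfsp2 (0.932), Cd24a (0.874), Gm12428 (0.867), Fabp5 (0.866) and Gm6166 (0.801). Gm12428 and Gm6166 were highest in APB5 replicate 3 and the other 3 in IgG+Mino replicate 3.

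The 6 γ-crystallin genes Cryga to Crygf, which are near-identical copies whose reads may be split between them, showed the same 2 rich libraries in a different proportion. Their sum was 101 CPM in IgG replicate 1 and 114 CPM in IgG+Mino replicate 3, and 1.26 to 25.96 CPM in the other 10. Relative to Cryaa the sum was 0.102 in IgG+Mino replicate 3 and 0.287 in IgG replicate 1. It was highest in the 2 libraries poorest in Cryaa, 0.946 in IgG+Mino replicate 2 and 0.945 in APB5 replicate 2, and 0.174 to 0.589 in the other 8. Crygb was higher in IgG replicate 1 (30.8 CPM) than in IgG+Mino replicate 3 (25.7 CPM), and so was Cryge (12.2 and 10.3 CPM). The crystallins thus did not keep 1 fixed proportion over the libraries.

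The first comparison, APB5 against IgG, asks what blocking PDGFRβ did to these genes. Group means were 40.4 ± 43.9 CPM in APB5 and 143 ± 182 CPM in IgG for Cryaa (SD, n = 3), 88.4 ± 58.4 and 73.7 ± 37.5 CPM for Cryab, and 4.37 ± 3.73 and 27.4 ± 36.6 CPM for Crygs. A gene was called where the adjusted p did not exceed 0.05 and the log2 fold change was 1 or more in either direction. Tested by edgeR (quasi-likelihood, adjusted after Benjamini and Hochberg over 20350 genes), 0 of 10 crystallins were called. Of all genes 0% were called by edgeR, and 87 genes were called by DESeq2, which called 0 of 10 crystallins. None of the 10 had an unadjusted p under 0.05, which 7.23% of all genes (1472) had. In a fit of all 12 libraries 7 genes were called, and 1150 when Xist was added as a covariate, with 0 of 10 crystallins among them in both. With that covariate Cryab was at 0.65 (SE 0.86) and Cryaa at -2.07 (SE 2.23). No crystallin had all libraries of a group above or below all of the other, which 15.7% of all genes had.

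Fitted log2 fold changes for the 9 crystallins other than Cryab were all negative, from -2.63 (Crygs) to -0.95 (Crybb3), with a median of -1.96 and SEs of 0.81 to 1.37, against a median of -0.0024 over all genes. That of Cryab was 0.28 (SE 0.54, adjusted p = 0.895). The negative values of the others depended on IgG replicate 1, without which their median was -0.07 and that of Cryaa 0.10. The value of Cryab depended on APB5 replicate 3, without which it was -0.38. Of the lens genes that encode no crystallin 9 of 12 were tested and 0 were called, 1 having an unadjusted p under 0.05 (Bfsp1, -1.62, adjusted p = 0.664), and their median log2 fold change was -0.55. Of the 6 γ-crystallins Cryga to Crygf 0 were called and 1 had an unadjusted p under 0.05 (Crygc, -2.37, adjusted p = 0.664), with a median of -1.97. These 2 counts stand beside 7.23% of all genes with an unadjusted p under 0.05. With the summed lens list as a covariate over all 12 libraries, the fitted value was 0.68 for Cryab (SE 0.25, edgeR adjusted p = 0.287) and -1.37 for Crygs (SE 0.53, adjusted p = 0.306). In that fit 4 of 10 crystallins had an unadjusted p under 0.05, beside 13.6% of all genes, and the median of the 9 was -0.72. With Hsf4 taken out of the sum, chosen after seeing the data, these were 2 of 10, 13.8% and -0.48.

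Small heat shock proteins other than the α-crystallins were set beside Cryab. In APB5 against IgG, 0 of 6 were called by edgeR, with a median log2 fold change of 1.12. An unadjusted p under 0.05 was found for 2 (Hspb7 and Hspb2), beside 7.23% of all genes. Hspb1, a stress-induced chaperone, had 4.62, 5.27 and 4.59 CPM in IgG and 6.76, 3.36 and 47.1 CPM in APB5 (log2 fold change 2.004, SE 0.89, adjusted p = 0.664). Hspb7 had 4.15 CPM in APB5 replicate 3 and 0 to 0.286 CPM in the other 11 libraries. Hspb2, whose gene neighbours that of Cryab, had 0.385, 0.508 and 0.449 CPM in IgG and 0.705, 0.529 and 2.55 CPM in APB5. Its groups did not overlap, as was so for 15.7% of all genes (log2 fold change 1.46, SE 0.60, edgeR adjusted p = 0.664). Hspb8 had 26.2 CPM in APB5 replicate 3, against 6.42 to 11.8 CPM elsewhere. The highest values of Hspb1, Hspb2, Hspb7 and Hspb8 were thus those of 1 library, the same one in which Cryab stood 2.70-fold above the mean of the other 2 APB5 libraries. Hspb6 (50.05 CPM) and Hspb3 (0.179 CPM) were instead lowest of all in that library. Bag3, a partner of Hspb8, had 777, 811 and 695 counts in IgG and 2445, 1237 and 7120 counts in APB5. Its groups did not overlap either, beside 15.7% of all genes (log2 fold change 2.14, SE 0.52, edgeR adjusted p = 0.664). Bag3 had the largest of the log2 fold changes of the 11 listed stress chaperones, which ran from -0.62 to 2.14. Their median was 0.03, with 7 positive and 4 negative. By edgeR 0 of the 11 were called, and 2 had an unadjusted p under 0.05, beside 7.23% of all genes. APB5 replicate 3 was the highest library for 4 of the 11, and IgG replicate 3 for 5.

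Gfap, the intermediate filament that reactive glia raise, had 1010 CPM in APB5 replicate 3, against 130 and 147 CPM in the other APB5 libraries and 27.6 to 56.1 CPM in the other groups. In APB5 replicate 2, Gfap was thus above every library of the other groups while Cryab, at 38.2 CPM, lay below all 3 IgG libraries. Of the 11 gliosis genes all had positive log2 fold changes, with a median of 2.64, and by edgeR 0 were called and 10 had an unadjusted p under 0.05 in APB5 against IgG, against the 7.23% of all genes. Over the 12 libraries, Cryab correlated with Gfap with r = 0.408, with Bag3 with r = 0.432 and with Hspb8 with r = 0.566, given here as a description of shared libraries. The part of the photoreceptor, pigment epithelium and gliosis values of APB5 replicate 3 in its Cryab level was not tested.

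**Figure D4:**
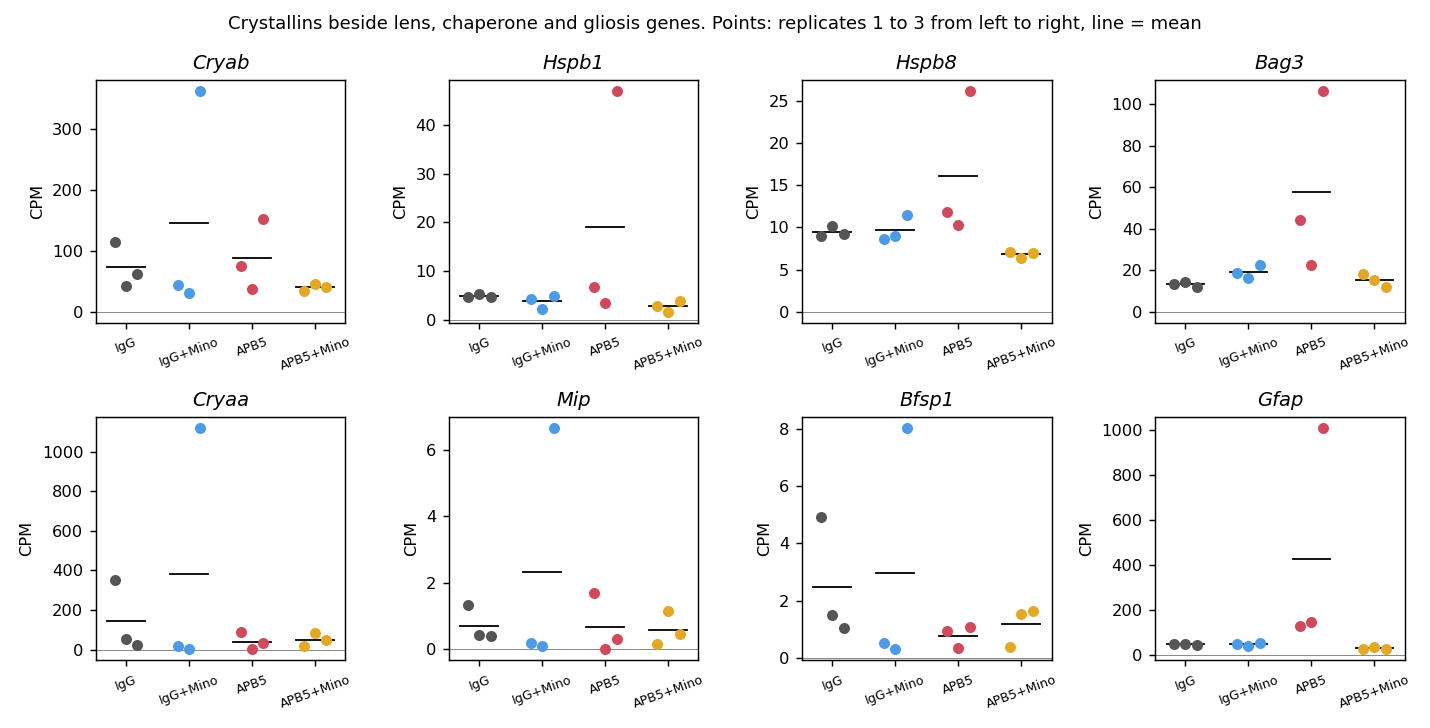
CPM of Cryab and Cryaa beside lens genes (Mip, Bfsp1), stress chaperones (Hspb1, Hspb8, Bag3) and Gfap, 3 libraries a group with the mean as a line. Cryaa, Mip and Bfsp1 were highest in IgG+Mino replicate 3, Hspb1, Hspb8, Bag3 and Gfap in APB5 replicate 3, and Cryab stood high in both.

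The comparison of APB5+Mino with APB5 asks what minocycline changed after the blocking antibody. Cryab averaged 40.5 ± 5.71 CPM in APB5+Mino and 88.4 ± 58.4 CPM in APB5 (SD, n = 3), and the ranges overlapped, since APB5 replicate 2 (38.2 CPM) lay below 2 of the 3 APB5+Mino libraries. Its log2 fold change was -1.15 (SE 0.46), with an unadjusted p of 0.0417 and an adjusted p of 0.126 by edgeR's quasi-likelihood test. It was the only 1 of the 10 crystallins with an unadjusted p under 0.05, which 35.9% of all genes (7282) had, and 0 of 10 were called. An exact two-sided permutation test of its log2 CPM gave p = 0.3, where 3 against 3 libraries can give no less than 0.1.

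DESeq2 called Cryab lower in APB5+Mino (log2 fold change -1.14, adjusted p = 0.0384), as did edgeR without APB5 replicate 2 (-1.51, adjusted p = 0.0335). Without APB5 replicate 3 the log2 fold change was -0.48 (adjusted p = 0.158). Same-numbered libraries deviated together in this comparison, and when the fit was blocked by replicate number the value was -0.94 (adjusted p = 0.185). Of 20281 genes, 1.66% were called without the block and 0 with it.

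The other 9 crystallins had log2 fold changes from -0.78 (Crygn) to 0.38 (Crygs), with a median of 0.19, SEs of 0.50 to 1.15 and adjusted p-values of 0.494 to 0.953 in APB5+Mino against APB5. None of the 10 had separate groups, as 46.3% of all genes did. Of the 6 other small heat shock genes 5 had negative log2 fold changes, 3 had an unadjusted p under 0.05, beside 35.9% of all genes, and 0 were called by edgeR, Hspb1 at -2.81 (SE 0.98, adjusted p = 0.096) and Hspb8 at -1.26 (SE 0.36, adjusted p = 0.0671) among them. Of the 11 stress chaperones 2 were called lower, Hmox1 (-2.54, adjusted p = 0.0494), a haem-degrading enzyme, and Hspa5 (-1.13, adjusted p = 0.0461), the chaperone of the endoplasmic reticulum. Of the 11 gliosis genes 2 were called lower, Edn2 (-3.56, adjusted p = 0.043) and Fgf2 (-1.79, adjusted p = 0.043), both secreted signals. Of all genes 1.66% were called in either direction. The calls of Hmox1, Hspa5, Edn2 and Fgf2 were not kept when any 1 of the APB5+Mino libraries was left out. In those fits edgeR called 0 genes of any kind. It called 1 gene without APB5 replicate 1, 1789 without APB5 replicate 2 and 923 without APB5 replicate 3. This does not tie the 4 calls to a particular library, since a group of 2 also leaves less to estimate the spread from.

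IgG+Mino against IgG compares minocycline with none where the antibody was the control. All 10 crystallins had positive log2 fold changes, from 0.64 (Crygs) to 1.42 (Cryaa), with SEs from 0.79 to 1.64, and 0 of 10 were called or had an unadjusted p under 0.05 by edgeR, which 8.37% of all genes had. Group means of Cryaa were 380 ± 640 CPM in IgG+Mino and 143 ± 182 CPM in IgG (SD, n = 3). Of 20143 genes 0.0298% were called, and 14.4% had separate groups, against 0 of 10 crystallins. DESeq2 gave a p-value only for Cryab (adjusted p = 0.866) and withheld it for the other 9, in each of which it found an outlying library.

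The direction depended on IgG+Mino replicate 3. Without it the log2 fold changes were -3.69 for Cryaa, -0.96 for Cryab and -4.21 for Crygs, and the median of the 9 was -4.01. In that fit 10 of the 10 had an unadjusted p under 0.05, as did 3.55% of all genes, and 0 were called, the edgeR adjusted p for Cryab being 0.992. Without IgG replicate 1 as well, Cryaa was at -1.79 and Cryab at -0.48, 7 of 10 had an unadjusted p under 0.05 beside 2.46% of all genes, and 0 were called.

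Between the minocycline groups, APB5+Mino against IgG+Mino, all 10 crystallins had negative log2 fold changes, from -3.13 (Cryba1) to -1.84 (Cryab), with adjusted p-values of 0.154 to 0.261 and 0 of 10 called by edgeR. Cryab (SE 0.78, unadjusted p = 0.0415, adjusted p = 0.154) was the 1 crystallin with an unadjusted p under 0.05, which 29.3% of all genes had. Of 20049 genes 1.23% were called and 35.2% had separate groups, against 0 of 10 crystallins. Here too the direction depended on IgG+Mino replicate 3, and without it the log2 fold change was 2.14 for Cryaa, 1.95 for Crygs and 0.078 for Cryab. An unadjusted p under 0.05 was then found for 7 of 10, with 23.4% of all genes, and for 10 of 10 without IgG+Mino replicate 1 (33.3% of all genes) or replicate 2 (30.0%). Calls appeared without IgG+Mino replicate 1, for Cryab (-2.27, adjusted p = 0.0397) and Crygn (-3.56, adjusted p = 0.0476), and for Cryab without a filter on low counts (-1.85, adjusted p = 0.0435). DESeq2 gave no p-value for any of the 10.

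Whether the antibody difference itself changed with minocycline was tested as an interaction in a fit of all 12 libraries. It was -2.11 for Cryab (SE 1.09, adjusted p = 0.336) and -1.11 for Cryaa (SE 2.34, adjusted p = 0.831), and 0 of 10 crystallins were called or had an unadjusted p under 0.05 by edgeR. Of 21228 genes 0.0141% were called and 17.1% had an unadjusted p under 0.05. DESeq2 gave a p-value only for Cryab (adjusted p = 0.334) and did not call it. Without IgG+Mino replicate 3 the interaction was -0.18 for Cryab and 3.97 for Cryaa, and 6 of 10 had an unadjusted p under 0.05, beside 11.9% of all genes. With Xist as a covariate it was -2.73 for Cryab (SE 1.24, edgeR adjusted p = 0.188).

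**Figure D5:**
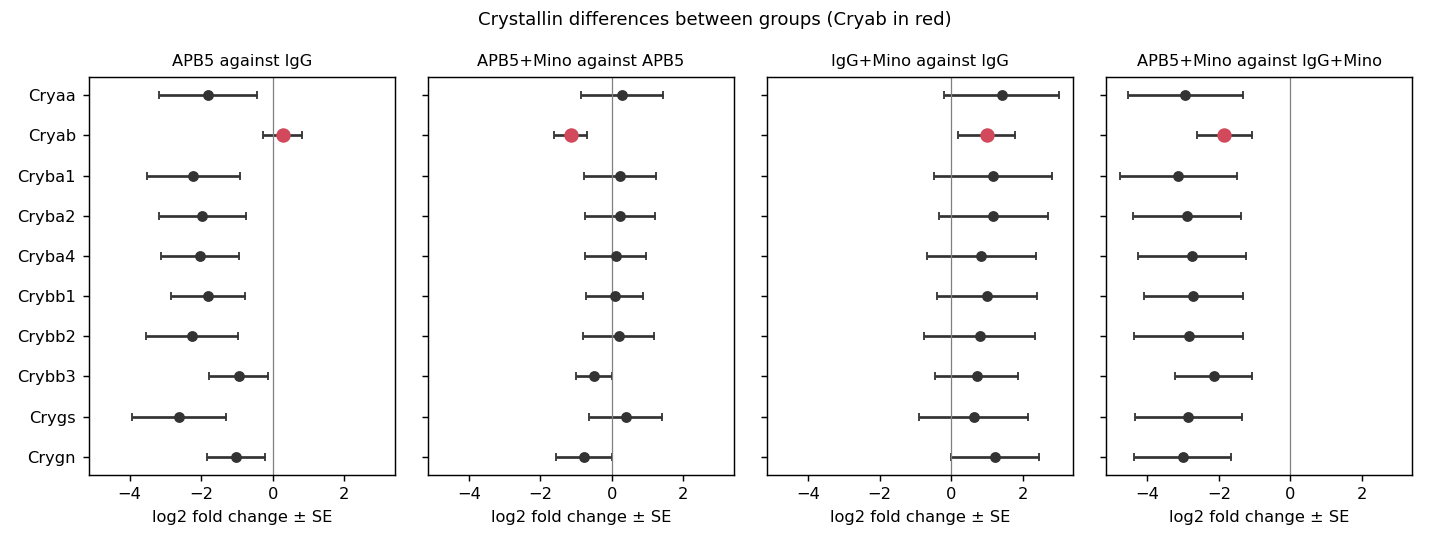
Fitted log2 fold change of each crystallin with its SE (bars) in the 4 comparisons of 2 groups, Cryab in red, 3 libraries a group. The 9 other genes lay near each other in each comparison, with SEs of 0.50 to 1.64, and Cryab alone was on the other side of 0 in APB5 against IgG (0.28).

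Transcription factors known to drive crystallin genes were steady by comparison. Pax6 ranged from 249 to 353 CPM over the 12 libraries, Sox2 from 24.0 to 43.5 CPM and Hsf2 from 24.7 to 42.3 CPM, the 3 with the smallest p in APB5 against IgG. Maf, the namesake of the motif above, ranged from 6.95 to 13.7 CPM. Pax6, Sox2 and Maf also serve retinal neurons or glia. Of the 10 regulators 8 passed the filter in APB5 against IgG and 0 were called, with 0 at an unadjusted p under 0.05 and log2 fold changes from -0.24 to 0.29. Pitx3 and Sox1, regulators with few counts in retina, were highest in IgG+Mino replicate 3 (25 and 17 counts), against 0 to 7 and 0 to 9 counts in the other 11 libraries.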

How the data were processed

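RNA was measured in 12 retinal libraries, 3 for each antibody (IgG or APB5) with and without minocycline, grouped by the titles that the authors gave them. The authors made stranded poly-A libraries, sequenced them as single reads (bcl2fastq 2.20) and counted genes on mm39 and its NCBI annotation by the DRAGEN pipeline. The pipeline's version, and whether counting used strand, are not given in the sources used here. The table deposited by the authors holds raw counts per gene, with 3 repeated columns that equal the columns they repeat and were left out. The authors' result tables hold group means, fold changes, standard errors and p-values and were not used.

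CPM were computed here from the deposited counts. Spans, SDs and correlations of log2 CPM were taken after adding 0.5 CPM. Fits used R 4.3.3 with edgeR 4.0.16 (filterByExpr, TMM, quasi-likelihood test, prior count 2, the 2 groups compared only), Benjamini-Hochberg adjustment over all genes tested, and a threshold of adjusted p 0.05 with a log2 fold change of 1. The SE is the fold change divided by the root of F. Promoter windows came from RefSeq (GRCm38.p6) and gene positions from GENCODE on GRCm39, the same assembly as mm39.

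The 10 genes, the gene lists and the rule for named genes were chosen with earlier results of these data known. Named were the 10 crystallins, up to 3 genes of each list by smallest p in APB5 against IgG with those a crystallin result turned on, and the 5 genes most like the crystallins and most like Cryab. Outside that rule Mip, Lim2, Hsf4, Dnase2b, Foxe3, Birc7, Cryge, Hspb3, Hspb6, Hspb8, Maf, Pitx3, Sox1, Glul and Optc were named after their values were seen. Alternatives were DESeq2 1.42.0, other scalings, no filter, no fold threshold, a replicate block, covariates and leaving out each library. On simulated counts edgeR recovered 200 of 200 genes changed 4-fold for APB5 against IgG, with 9 unchanged genes called among 20350. For the interaction it recovered 191 of 200. The simulation gave every gene the same dispersion and held no outlying library. It therefore does not measure how often a change would be found in genes as variable as the crystallins. Same-numbered libraries deviated together in every pair only for APB5+Mino against APB5 (correlations 0.131 to 0.284). No label says that the numbers pair mice, and the main fits did not pair them. In both of those groups replicate 3 was the only Xist-rich library, so a pairing by number and sex cannot be told apart there. Intervals from counts cover counting error only.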

Additional observations from a re-analysis of the deposited data

How the results depend on the processing

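No crystallin was called in any of the 5 comparisons by edgeR as designed. Of 87 counts of called crystallins over comparisons and settings, 83 stayed at 0. The exceptions were 1 for APB5+Mino against APB5 with DESeq2, 1 for APB5+Mino against IgG+Mino without a filter on low counts, and the ranges over libraries left out, 0 to 1 for the former comparison (without APB5 replicate 2) and 0 to 2 for the latter (without IgG+Mino replicate 1). With 2 libraries left in a group, the spread was taken from both groups. Not all of the 83 counts were free to move. DESeq2 gave no p-value for any of the 10 in APB5+Mino against IgG+Mino, so its count there could only be 0. In IgG+Mino against IgG and in the interaction it gave a p-value for Cryab alone.

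Directions were less firm. Over libraries left out, the log2 fold change in APB5 against IgG ran from -3.07 to 0.10 for Cryaa and from -0.38 to 0.77 for Cryab. In APB5+Mino against APB5 it ran from -0.32 to 1.53 for Cryaa and from -0.17 to 0.97 for Crygs. In IgG+Mino against IgG it ran from -3.69 to 3.31 for Cryaa, from -0.96 to 1.47 for Cryab and from -4.21 to 2.72 for Crygs. In APB5+Mino against IgG+Mino it ran from -3.57 to 2.14 for Cryaa, from -2.32 to 0.078 for Cryab and from -3.45 to 1.95 for Crygs. The interaction ran from -3.04 to 3.97 for Cryaa and from -2.35 to 4.599 for Crygs. Without IgG replicate 1 and IgG+Mino replicate 3 together, a choice made after seeing the data, IgG+Mino against IgG gave -1.79 for Cryaa, -0.48 for Cryab and -2.10 for Crygs, and the interaction 2.05 for Cryaa and 2.48 for Crygs.

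With the replicate block, IgG+Mino against IgG gave -2.58 for Cryaa and -2.57 for Crygs, and the interaction 1.04 and 1.99. No crystallin was called with the block. With the summed lens genes as a covariate, IgG+Mino against IgG gave -0.53 for Cryaa and -1.10 for Crygs, APB5+Mino against IgG+Mino 1.21 and 1.05, and the interaction 1.93 and 2.42. With Hsf4 taken out of that sum, also chosen after seeing the data, Crygs was at -0.39 in IgG+Mino against IgG, Cryaa and Crygs at 0.27 and 0.10 in APB5+Mino against IgG+Mino, and at 0.76 and 1.17 in the interaction. The cause was not tested. Genes called in APB5+Mino against APB5 numbered 336 by edgeR, 1531 by DESeq2, 5 with library size only, 0 with the block and 0 to 1789 over libraries left out. Those called in APB5 against IgG numbered 0 by edgeR, 87 by DESeq2, 7 over all 12 libraries and 1150 with Xist as a covariate. Counts of 1 to 20, as for Crygn, limit its ratios.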

Other observations

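Genes that other lists hold were examined in the same libraries. The taxon crystallins Crym, Cryz, Cryzl1 and Cryl1, enzymes that serve as lens proteins in some other animals, were tested in all comparisons. In APB5 against IgG 0 of 4 were called by edgeR, with 1 at an unadjusted p under 0.05, beside 7.23% of all genes. Crym had the largest log2 fold change of them, 1.15 (SE 0.45, adjusted p = 0.664). The 7 genes of cornea and ciliary body, other tissues near the lens, summed to 93.5 CPM in IgG+Mino replicate 3 and 53.7 CPM in IgG replicate 1, within the 16.3 to 122 CPM of the 12 libraries. Optc alone made up 85.0 and 44.3 CPM of those sums, so they mostly describe that 1 gene. None of the 7 genes was highest in either of those 2 libraries. The 5 red cell genes summed to 182 and 53.4 CPM in them, within 52.6 to 258 CPM, and the 10 amacrine and ganglion cell genes to 2359 and 2260 CPM, within 1776 to 2461 CPM. The 9 Müller glia genes summed to 4943 CPM in IgG+Mino replicate 3, 4290 CPM in IgG replicate 1 and 8256 CPM in APB5 replicate 3, the highest of the 12. Apoe alone made up 4788 CPM of that last sum. APB5 replicate 3 was the highest library for 4 of the 9 genes, and the lowest for Glul (1570 CPM).

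In APB5 against IgG, edgeR called 0 of the 9 Müller glia genes, 0 of 10 amacrine and ganglion cell genes, 0 of 8 rod genes, 0 of 10 pigment epithelium genes, 0 of 5 red cell genes and 0 of 5 cornea and ciliary genes tested. An unadjusted p under 0.05 was found for 2 Müller glia genes (Sox9 and Apoe), for 1 pigment epithelium gene (Ttr) and for 0 of the others. Of all genes 7.23% had one.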
